A study of Mus musculus with 25 samples.

Results

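GATA1 peak pairs outside the MultiGPS locations that had a TAL1 peak pair of the same kind beside them were collected from ChIP-exo location lists of mouse erythroid cells. A member was a GATA1 peak pair more than 100 bp from every GATA1 MultiGPS location with, less than 40 bp away, a TAL1 peak pair that was itself more than 100 bp from every TAL1 MultiGPS location. There were 824 members among 46666 GATA1 peak pairs. They were 3.28% of the 25159 GATA1 pairs outside MultiGPS. The TAL1 list held 63546 pairs, of which 31730 were outside MultiGPS. The working name of these sites calls them weak, but the lists hold 1 base position per entry with no score or tag count, so their strength could not be checked, and they are called here by the rule that chose them. The members were chosen by the distances between pairs and to MultiGPS locations of the same factor, which are described below without a test.

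GATA1 is a zinc finger transcription factor that binds WGATAA, where W is A or T, and is required for red cell maturation. TAL1 is a basic helix-loop-helix factor that binds the E-box CANNTG together with an E protein, and it is joined to GATA1 through LMO2 and LDB1, so that a partial E-box (TG) a short distance upstream of WGATAA can serve as a compound site. In ChIP-exo an exonuclease trims immunoprecipitated DNA up to the cross-linked protein, and a peak on each strand marks that border. A peak pair is a plus-strand and a minus-strand peak joined by their distance, whereas MultiGPS fits a learned read pattern over all conditions.

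The cells were G1E, a Gata1-null erythroid progenitor line of strain 129, and G1E-ER4, a derivative in which GATA1 is restored as an estradiol-dependent protein. GATA1 was precipitated from G1E cells (1 library) and from G1E-ER4 cells at 0 h without estradiol and at 3 h and 24 h in 10 nM estradiol (3 libraries each), the concentration being that of the sample labels, while the study's methods state another. TAL1 was precipitated from G1E cells (4 libraries) and from G1E-ER4 cells at 0 h (5 libraries), 3 h and 24 h (3 libraries each). Each list pools the libraries and times of a factor, so the lists hold no value per sample, each cell type is a single cultured line, and whether the factors sat on the same allele, in the same cell or at the same time cannot be told from these lists.

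The windows that follow were taken from the mm9 reference and show the range of sequences at the members. Each is 81 bp centred on the GATA1 midpoint, written 5′ to 3′ on the strand named, with WGATAA in capitals, and with TG, or the whole CANNTG that holds it, in capitals where it stood 7 or 8 bp upstream. The first 4 lie more than 500 bp from any MultiGPS location and carry the compound site, and 3 of them hold a full E-box in its upstream part.
Epb4.9 (chr14:71021285-71021365, + strand): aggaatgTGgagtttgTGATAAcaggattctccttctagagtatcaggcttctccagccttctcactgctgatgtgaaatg
Isca1 (chr13:59871668-59871748, - strand): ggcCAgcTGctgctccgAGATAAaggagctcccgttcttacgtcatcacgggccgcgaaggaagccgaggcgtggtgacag
Wapal (chr14:35488307-35488387, + strand): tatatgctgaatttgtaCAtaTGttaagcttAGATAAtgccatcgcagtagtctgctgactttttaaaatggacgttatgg
Acyp1 (chr12:86620128-86620208, + strand): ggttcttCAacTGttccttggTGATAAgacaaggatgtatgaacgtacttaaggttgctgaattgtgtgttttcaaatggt
The next windows are members within 500 bp of a MultiGPS location, the first with a compound site, the second with WGATAA alone and the last 2 with neither WGATAA nor TG in capitals.
Runx1 (chr16:92712550-92712630, - strand): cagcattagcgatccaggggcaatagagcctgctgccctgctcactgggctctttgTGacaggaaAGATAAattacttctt
Gfi1b (chr2:28472447-28472527, - strand): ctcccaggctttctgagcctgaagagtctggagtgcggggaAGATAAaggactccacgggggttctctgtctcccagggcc
Slc25a38 (chr9:120025292-120025372, + strand): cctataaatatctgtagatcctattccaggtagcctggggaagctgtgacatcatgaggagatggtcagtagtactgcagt
Spna1 (chr1:176101427-176101507, + strand): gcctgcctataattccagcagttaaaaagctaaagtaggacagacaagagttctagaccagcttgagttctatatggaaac
The last window is a member at Ank1 that lies far from any MultiGPS location and has no site above the threshold.
Ank1 (chr8:24205090-24205170, + strand): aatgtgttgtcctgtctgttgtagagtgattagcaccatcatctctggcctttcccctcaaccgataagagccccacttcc

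The members were spread over all 20 chromosomes, from 16 on chromosome X to 90 on chromosome 1. Joining members less than 500 bp apart gave 749 stretches, of which 684 held a single member, 57 held 2 and 8 held 3 or more. The members had 783 distinct closest TAL1 pairs, 40 of which were shared by more than 1 member, so members of a stretch are not independent. In 65 members 2 or more TAL1 pairs outside MultiGPS lay within reach, and in 20 the midpoints of both factors fell on the same base. A TAL1 pair at a TAL1 MultiGPS location was also within 40 bp in 52 members. The central 25 bases of the window occurred once in the reference in 815 of 824 members (98.9%), compared with 98.2% of the GATA1 pairs outside MultiGPS that had no TAL1 pair within 40 bp. The other 9 members were all among the 329 that lay more than 500 bp from MultiGPS locations of either factor. Of those 329, 97.3% occurred once.

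The distance between the factors was spread almost evenly over the range the rule allowed. Its median was 18.5 bp, 52.3% of the members had the TAL1 midpoint less than 20 bp away, and each 5-bp step held 10.2 to 14.3% of the members. At the 10949 GATA1 pairs that lay at a GATA1 MultiGPS location beside a TAL1 pair at a TAL1 MultiGPS location (cooccupied MultiGPS pairs below), the median was 10 bp and 78.5% were less than 20 bp apart. Beyond the limit the number of GATA1 pairs outside MultiGPS per bp of distance to a TAL1 pair outside MultiGPS went down, though not at every step, as the plot of pairs per bp of distance shows. It was 21.6 per bp at 0 to 19 bp, 19.6 at 20 to 39 bp, 14.4 at 40 to 59 bp and 7.45 at 180 to 199 bp. More than 500 bp from MultiGPS locations it went from 8.75 to 1.05 per bp between the first and the last of these steps, and within 500 bp of one from 12.8 to 6.4 per bp. Within 500 bp it rose in between, from 7.5 per bp at 60 to 79 bp to 9.15 at 80 to 99 bp. Just inside the limit, at 35 to 39 bp, 47 of 84 members (56.0%) had a WGATAA site, and just outside, at 40 to 44 bp, 43 of 88 pairs (48.9%) had one.

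**Figure D1:**
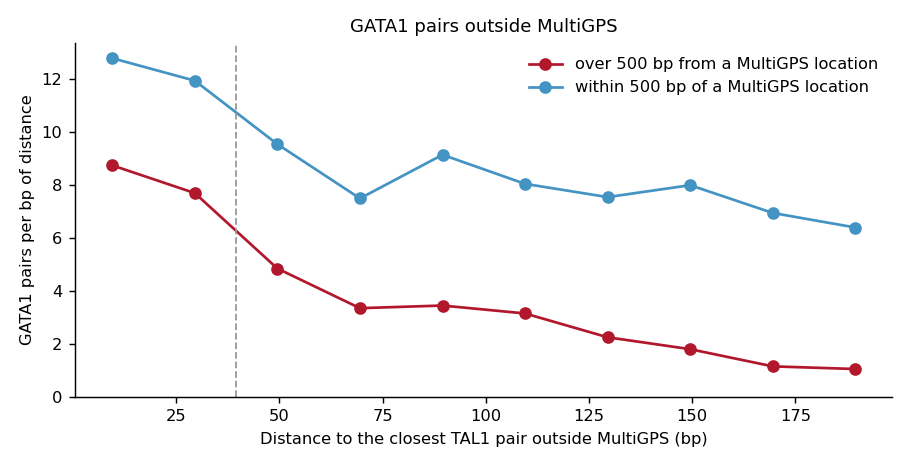
GATA1 peak pairs outside MultiGPS per bp of distance (y axis) against the distance in bp to the closest TAL1 peak pair outside MultiGPS (x axis, steps of 20 bp), for pairs over 500 bp from (red) and within 500 bp of (blue) a MultiGPS location of either factor. Pairs left of the dashed line are the members. Both curves end lower than they start, from 8.75 to 1.05 and from 12.8 to 6.4 pairs per bp, but neither falls at every step. The blue curve rises from 7.5 at 60 to 79 bp to 9.15 at 80 to 99 bp.

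Most members lay beside a MultiGPS location. A location of either factor was within 500 bp of 495 members (60.1%), of 15.3% of the GATA1 pairs outside MultiGPS without TAL1 (n = 22183) and of 26.5% of the TAL1 pairs outside MultiGPS without GATA1 (n = 29975). For 372 members (45.1%) the closest location was more than 100 and up to 200 bp away, the first distances that the rule left for the same factor. Locations of both factors were within 500 bp of 356 members (43.2%), of TAL1 alone in 68 (8.25%) and of GATA1 alone in 71 (8.62%). The other 329 members (39.9%) had none within 500 bp, and 161 of these were more than 10 kb away. As to the limit of the rule, 53 of 102 members with a GATA1 MultiGPS location over 100 and up to 120 bp away (52.0%) had a WGATAA site, and 63 of 112 pairs at 81 to 100 bp that met the rest of the rule (56.2%) had one.

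**Figure D2:**
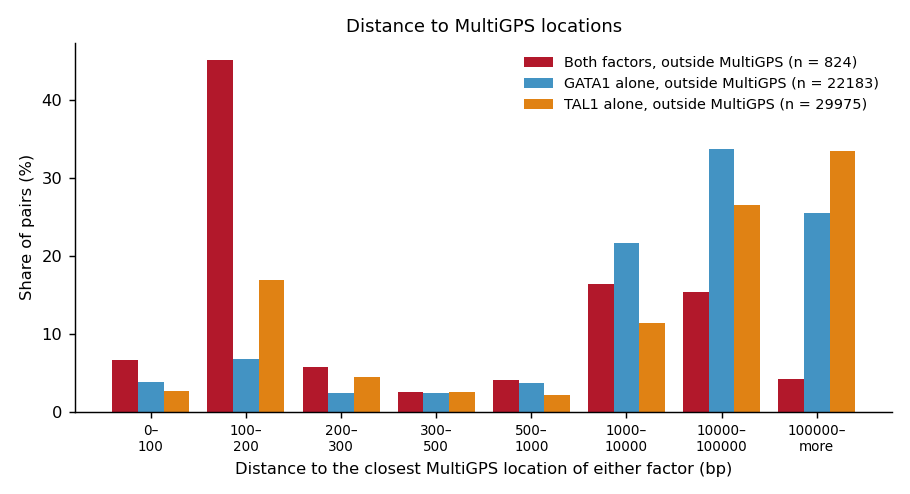
Share of peak pairs in % (y axis) by the distance in bp to the closest MultiGPS location of either factor (x axis, unequal steps) for the members (red, n = 824), GATA1 pairs without TAL1 (blue) and TAL1 pairs without GATA1 (orange), all outside MultiGPS. The members pile up at 100 to 200 bp (45.1%), while the other classes have more pairs beyond 10 kb.

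WGATAA was found at more members than at GATA1 pairs outside MultiGPS without TAL1, and at fewer members than at cooccupied MultiGPS pairs. A site was a match to a weight matrix learned from GATA1 locations, above its exact threshold for p = 0.001, with WGATAA within 40 bp of the midpoint. Of the members, 461 of 824 (55.9%, 95% interval 52.5 to 59.4) had one, beside 62.3% of all GATA1 pairs and 15.9% of the members' windows moved by 1 kb. The share was 50.5% in GATA1 pairs without TAL1 (odds ratio 1.24, 95% interval 1.08 to 1.43, adjusted exact p = 0.0065), 75.9% in cooccupied MultiGPS pairs (odds ratio 0.404, 0.35 to 0.467, adjusted exact p = 1.13e-31) and 20.4% in TAL1 pairs without GATA1 (odds ratio 4.97, 4.32 to 5.71, adjusted exact p = 8.11e-106). These are Fisher's exact tests, two-sided, with Benjamini-Hochberg adjustment over 43 tests, and they and the exact binomial intervals cover counting error only and treat pairs as independent. Windows of TAL1 pairs without GATA1 are centred on TAL1, and that class was chosen for having no GATA1 pair under 40 bp away. Its lower WGATAA share was thus favoured by the choice of classes, and that test is no evidence about the members. With the exact string WGATAA the shares were 40.7% and 37.3%, and the difference from GATA1 pairs without TAL1 no longer passed (odds ratio 1.15, adjusted exact p = 0.0936). Another class, left out of the tests, held GATA1 pairs outside MultiGPS with only a TAL1 pair at MultiGPS under 40 bp away. Of its 2152 pairs 59.2% had a matrix site, a higher share than in the members. Of the 52 members that also had such a TAL1 pair, 40.4% had a matrix site.

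The share with a WGATAA site was higher in members far from MultiGPS locations than in members beside them. Of the 329 members more than 500 bp from a location of either factor, 235 (71.4%, 66.2 to 76.2) had a WGATAA site, and of the 495 members within 500 bp, 226 (45.7%, 41.2 to 50.2) had one. Counting 1 member per stretch gave 71.3% of 300 and 45% of 449. In windows moved by 1 kb the shares were 16.1% and 15.8%. The members over and within 500 bp were set against each other after these shares had been seen, and the distance is one the rule used, so no test was made between them. Among pairs more than 500 bp away the members exceeded GATA1 pairs without TAL1 (49.7%, odds ratio 2.53, adjusted exact p = 5.83e-14), and their difference from cooccupied MultiGPS pairs did not pass (odds ratio 0.795, adjusted exact p = 0.115). Within 500 bp the direction against GATA1 pairs without TAL1 was the opposite, at 45.7% of members and 54.9% of those pairs (odds ratio 0.689, adjusted exact p = 0.00145). Without TAL1 here means only that no TAL1 pair lay under 40 bp away. Of these 3402 pairs within 500 bp, 853 were at most 100 bp from a TAL1 MultiGPS location, so the class is not free of TAL1. The 161 members more than 10 kb from any location had a site in 68.3% (60.5 to 75.4), compared with 46.3% of the 13151 GATA1 pairs without TAL1 that lay as far away. MultiGPS was run with its motif discovery options, so the motif content of MultiGPS locations is not independent of their call.

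**Figure D3:**
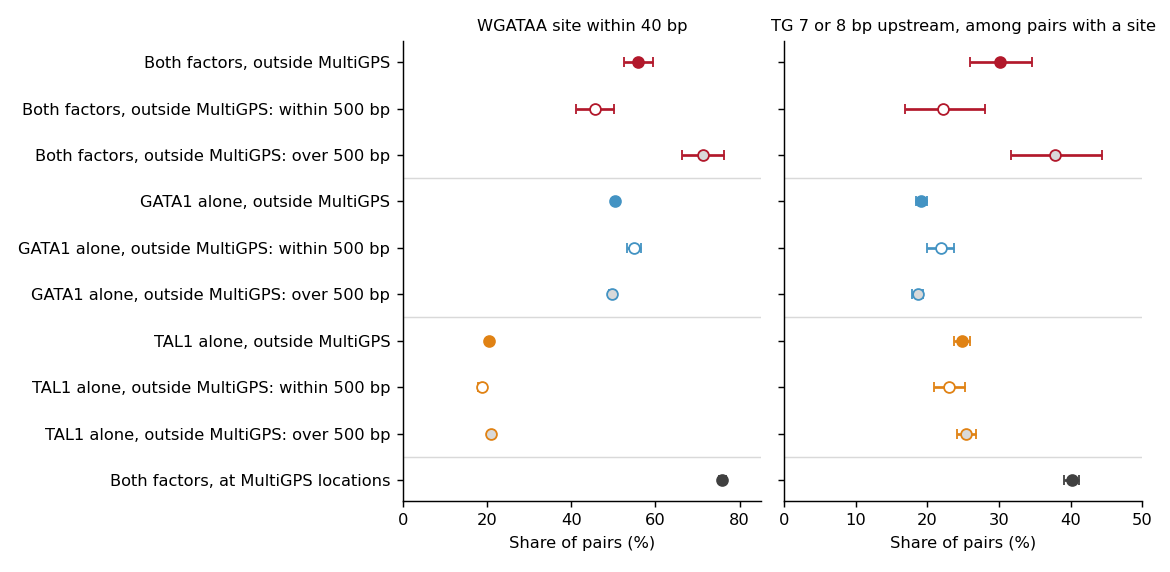
Share of pairs in % with a WGATAA site within 40 bp (left) and, among those, with TG 7 or 8 bp upstream (right), for each class (colour), over all of it (filled) and split at 500 bp from MultiGPS locations (white within, grey over); bars are exact 95% binomial intervals. Members over 500 bp (71.4% and 37.9%) stand apart from members within 500 bp (45.7% and 22.1%), while the other classes change by less.

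The compound site, TG 7 or 8 bp upstream of WGATAA counted from its near end, followed the same split. It was present at 139 of the 461 members with a WGATAA site (30.2%, 26.0 to 34.6), beside 26.2% of all GATA1 pairs with a site. The mean share at distances of 0 to 30 bp, leaving out 6 to 10 bp, gave 15.2% for as many positions. The share was 19.2% in GATA1 pairs without TAL1 (odds ratio 1.82, adjusted exact p = 2.13e-07), 40.1% in cooccupied MultiGPS pairs (odds ratio 0.644, adjusted exact p = 6.87e-05) and 24.8% in TAL1 pairs without GATA1 (odds ratio 1.31, adjusted exact p = 0.0267). More than 500 bp from MultiGPS locations 89 of 235 members with a site (37.9%, 31.6 to 44.4) had the compound site, and within 500 bp 50 of 226 (22.1%, 16.9 to 28.1) had it, again without a test between them. The distant members exceeded the distant GATA1 pairs without TAL1 (18.6%, odds ratio 2.66, adjusted exact p = 1.5e-10), and their difference from cooccupied MultiGPS pairs did not pass (odds ratio 0.909, adjusted exact p = 0.57). Within 500 bp the members and the GATA1 pairs without TAL1 (21.8%) had an odds ratio of 1.02 (adjusted exact p = 1).

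The distance of 8 bp was the more frequent one. TG stood 8 bp upstream in 80 members (17.4%) and 7 bp upstream in 59 (12.8%), while the shares at 6 and 9 bp were 8.46% and 11.3%. In members more than 500 bp from MultiGPS locations the share was 22.6% at 8 bp and 15.3% at 7 bp, and in cooccupied MultiGPS pairs 24.4% and 15.7%. Of the 335 members with the exact string WGATAA, 103 had TG 7 or 8 bp upstream, and in 19 of these the TG ended a full CANNTG, as in the windows at Isca1, Wapal and Acyp1. The full CANNTG was counted in members only, so no share of another class stands beside it.

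TAL1 lay upstream of WGATAA more often than downstream, and so did GATA1. The TAL1 midpoint was 5′ of the centre of WGATAA in 298 of 461 members (64.6%, 60.1 to 69.0) and in 60.7% of cooccupied MultiGPS pairs (odds ratio 1.19, 0.975 to 1.44, adjusted exact p = 0.142). The share was 68.9% (62.6 to 74.8) in members more than 500 bp from MultiGPS locations and 60.2% (53.5 to 66.6) in those within 500 bp, and with 1 member per stretch 69.2% and 58.9%. Against cooccupied MultiGPS pairs the members more than 500 bp away had an odds ratio of 1.44 (adjusted exact p = 0.0264), but with 1 pair per stretch, which raised the share of cooccupied MultiGPS pairs to 64.2%, it was 1.25 and did not pass (adjusted exact p = 0.267). A TAL1 midpoint 10 to 25 bp upstream was found in 136 members (29.5%) and one 10 to 25 bp downstream in 63 (13.7%). For members more than 500 bp away these were 85 of 235 (36.2%) and 28 (11.9%). Around 447 distinct WGATAA sites of the members, GATA1 midpoints were densest 6.5 bp and TAL1 midpoints 19.5 bp upstream of the centre, and around 5787 sites of cooccupied MultiGPS pairs they were densest at 8.5 and 16.5 bp upstream. No test was made of these maxima. Within 60 bp of the 447 sites, 332 GATA1 midpoints lay upstream and 203 downstream, compared with 336 and 218 TAL1 midpoints. At 10 to 25 bp there were 131 GATA1 midpoints upstream and 75 downstream, and 137 and 76 TAL1 midpoints. Around the 5787 sites of cooccupied MultiGPS pairs these were 2140 and 1733 for GATA1, and 3104 and 1890 for TAL1. The rule placed TAL1 less than 40 bp from GATA1, so the side of TAL1 is not independent of that of GATA1. The centre of WGATAA lay between the midpoints of the factors in 30.4% of members and 16.3% of cooccupied MultiGPS pairs, a difference not tested because the rule used the distance between the midpoints.

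**Figure D4:**
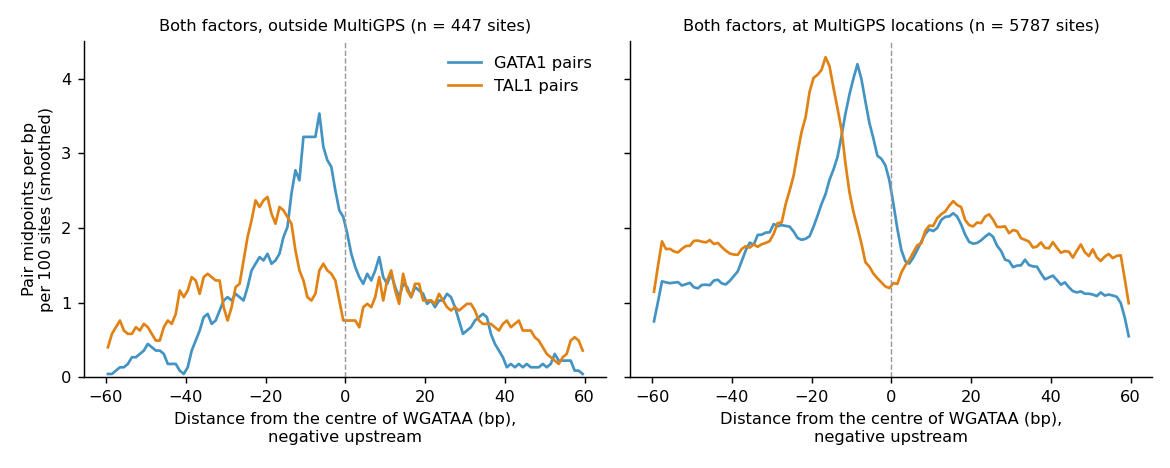
Midpoints of GATA1 (blue) and TAL1 (orange) peak pairs per bp and 100 sites, smoothed over 5 bp (y axis), by distance in bp from the centre of WGATAA, negative upstream (x axis), at members (left, 447 sites) and at cooccupied MultiGPS pairs (right, 5787 sites). In both panels TAL1 is densest farther upstream than GATA1, at 19.5 and 6.5 bp in the members.

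Among the other motifs, searched on both strands within 40 bp, the E-box preferred by TAL1 with E proteins was more frequent at members than at pairs of a single factor, and CCAAT was less frequent. CAGCTG or CAGATG was present at 134 members (16.3%, 13.8 to 19), beside 14.6% of all GATA1 pairs and 8.37% of the moved windows. The share was 12% in GATA1 pairs without TAL1 (odds ratio 1.42, adjusted exact p = 0.00166), 20.6% in cooccupied MultiGPS pairs (odds ratio 0.748, adjusted exact p = 0.00698) and 11.3% in TAL1 pairs without GATA1 (odds ratio 1.52, adjusted exact p = 0.000115). Within 20 bp the excess over both single-factor classes did not pass (adjusted exact p = 0.344 and 0.1). Members over and within 500 bp from MultiGPS locations had it in 19.5% and 14.1%. Any E-box, CANNTG, was at 39.6% of members (37.6% of all GATA1 pairs), and no test of it over all members within 40 bp passed. It passed within 20 bp against cooccupied MultiGPS pairs (19.5% and 23.5%, adjusted exact p = 0.0229) and, more than 500 bp from MultiGPS locations, against GATA1 pairs without TAL1 (42.6% and 36.1%, adjusted exact p = 0.0423, and 0.188 with 1 pair per stretch). Neither a WGATAA site nor CANNTG was found at 217 members (26.3%), which were 58 of those over 500 bp from MultiGPS locations (17.6%) and 159 of those within 500 bp (32.1%). These shares are given without those of the other classes, no test of them was made, and they do not show whether the members are unusual.

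CCAAT, the motif of NF-Y, was at 50 members (6.07%, 4.5 to 7.9), beside 9.95% of all GATA1 pairs and 9.95% of the moved windows. Its share was 11.4% in GATA1 pairs without TAL1 (odds ratio 0.501, adjusted exact p = 2.26e-06), 11.0% in TAL1 pairs without GATA1 (odds ratio 0.523, adjusted exact p = 1.05e-05) and 8.11% in cooccupied MultiGPS pairs (adjusted exact p = 0.0635). It was at 6.38% of members over 500 bp from MultiGPS locations and at 5.86% of those within 500 bp. TGTGGT, the RUNX motif, was at 71 members (8.62%, beside 9.26% of all GATA1 pairs) and at 11.6% of cooccupied MultiGPS pairs (odds ratio 0.715, adjusted exact p = 0.0155, and 0.118 with 1 pair per stretch). It was at 6.59% of TAL1 pairs without GATA1 (odds ratio 1.34, adjusted exact p = 0.0473, and 0.0194 with 1 pair per stretch), and neither difference passed within 20 bp (adjusted exact p = 0.0598 and 0.393). The ETS motif GGAAGT was at 63 members (7.65%, beside 6.72%), more than in TAL1 pairs without GATA1 (5.37%, adjusted exact p = 0.0135), and within 20 bp this did not pass (adjusted exact p = 0.164). More than 500 bp from MultiGPS locations GGAAGT was at 31 of 329 members (9.42%) and at 6.22% of GATA1 pairs without TAL1. The odds ratio there was 1.57 (adjusted exact p = 0.0492, and 0.138 with 1 pair per stretch). For TGANTCA, bound by AP-1 and NF-E2 (21 members, 2.55%, beside 2.96%), CCNCNCCC, bound by KLF factors (58 members, 7.04%, beside 7.63%), and GGGCGG, bound by SP1 (16 members, 1.94%, beside 1.99%), no test over all members passed. More than 500 bp from MultiGPS locations GGGCGG was at 10 of 329 members (3.04%) and at 1.23% of TAL1 pairs without GATA1 (odds ratio 2.53, adjusted exact p = 0.0254, and 0.0918 with 1 pair per stretch). No member had 3 or more GATA units in a row (0 of 824, exact upper bound 0.447%), which 104 of 22183 GATA1 pairs without TAL1 had. No test was made of this difference, and the share over all GATA1 pairs is not given. These counts do not show whether the members are unusual. The median GC content of the window was 46.9% in members and 45.7% in GATA1 pairs without TAL1.

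Members lay closer to genes than the other classes outside MultiGPS. The median distance to the closest start site of a protein-coding gene was 11.1 kb in members, 20.3 kb in GATA1 pairs without TAL1, 15.8 kb in cooccupied MultiGPS pairs and 26.1 kb in TAL1 pairs without GATA1. Within 1 kb of a start site were 88 members (10.7%, 8.7 to 13.0), beside 8.72% of all GATA1 pairs. This exceeded GATA1 pairs without TAL1 (7.92%, odds ratio 1.39, adjusted exact p = 0.0135), cooccupied MultiGPS pairs (7.4%, odds ratio 1.5, adjusted exact p = 0.00323) and TAL1 pairs without GATA1 (5.27%, odds ratio 2.15, adjusted exact p = 1.8e-08), but the differences from the first 2 classes did not pass among pairs more than 500 bp from MultiGPS locations (adjusted exact p = 0.0719 and 0.0535). Introns held 461 members (55.9%, beside 52.4% of all GATA1 pairs), compared with 49.6% of GATA1 pairs without TAL1 (adjusted exact p = 0.00121) and 54.0% of cooccupied MultiGPS pairs (adjusted exact p = 0.371). More than 500 bp from MultiGPS locations introns held 59.0% of members and 48.4% of GATA1 pairs without TAL1 (adjusted exact p = 0.00058). Within 500 bp the direction turned, at 53.9% and 56.3%, and did not pass (adjusted exact p = 0.572). Exons held 56 members (6.8%, beside 4.78%), and their excess over each class (adjusted exact p = 0.0075 to 0.0252) did not pass with 1 pair per stretch (adjusted exact p = 0.0788 to 0.195). Outside genes lay 307 members (37.3%, beside 42.8%). Within 500 bp of MultiGPS locations this was 39.2% of members and 39.4% of GATA1 pairs without TAL1.

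Members were counted at genes of the red cell program. Of 86 genes in 8 blood lists, 19 had a member in the gene or within 10 kb (22.1%), beside 739 of 22208 protein-coding genes (3.33%), and none of 17 genes in the liver, neuron and muscle lists had one. The lists were chosen with results of these data known and no test was made. Median gene length was 23.7 kb in the blood lists, 12.3 kb in the control lists and 15.5 kb over all genes. The iron and heme transport list had 4 of 9 genes with a member, the red cell membrane and skeleton list 6 of 14, the list of the GATA1-TAL1 complex and its partner factors 5 of 14, and the progenitor list 2 of 11. Heme synthesis (1 of 9) and erythropoietin signalling (1 of 10) had a single gene each, and the globins (0 of 7) and the cell cycle and survival list (0 of 12) had none.

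**Figure D5:**
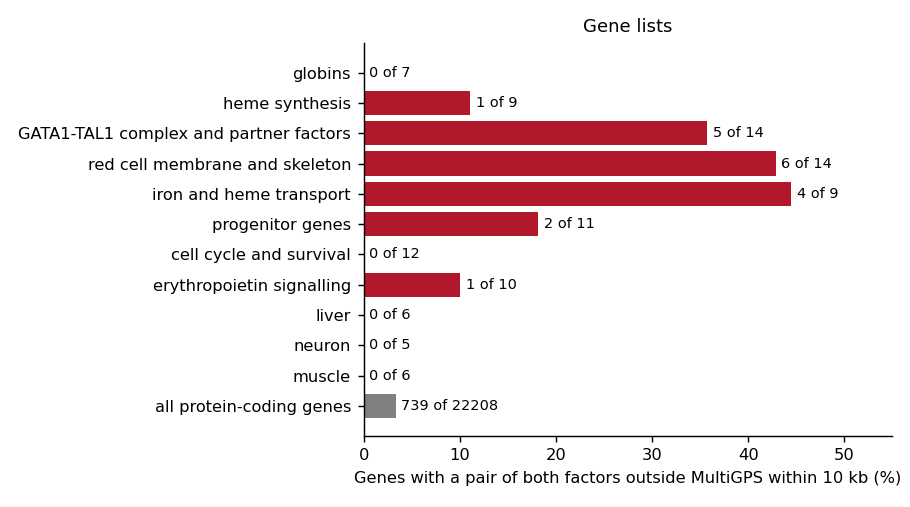
Share in % of the genes of each list with a member in the gene or within 10 kb (x axis), for blood lists (red), control lists (blue) and all protein-coding genes (grey, 3.33%), with counts beside the bars. The iron, membrane and complex lists have the most genes with a member (4 of 9, 6 of 14 and 5 of 14).

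Among the partner factors, Runx1 and Ssbp3 had 4 members each and Gfi1b had 2. Runx1 is a core hematopoietic factor, and its 4 members were intronic, at 122 to 205 bp from a GATA1 MultiGPS location, 1 of them with the compound site printed above. Ssbp3, which encodes an LDB1-binding protein, had 3 members in introns and 1 outside the gene, at 115 to 274 bp from a GATA1 MultiGPS location. Gfi1b, a repressor needed in erythroid cells, had 1 intronic member with WGATAA and 1 in an exon 47 bp from a start site without a site. Klf1, the activator of adult globin genes, had a member in an exon 117 bp from a start site, with an E-box of the CAGCTG or CAGATG kind and no WGATAA site. Zfpm1, which encodes the GATA1 cofactor FOG1, had an intronic member with WGATAA 251 bp from a GATA1 and 5595 bp from a TAL1 MultiGPS location. Thus all 12 members at these 5 genes lay within 500 bp of a MultiGPS location.

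The membrane and skeleton genes included members far from MultiGPS locations. Ank1, which encodes ankyrin of the red cell membrane, had 3 intronic members within 155 bp of each other, 1417 to 1572 bp from a start site and 40094 bp or more from any MultiGPS location of either factor. Their TAL1 midpoints were 19, 3 and 16 bp away, 9 TAL1 pairs lay within 500 bp of the stretch, and 1 of the 3 had a WGATAA site. Epb4.9, which encodes dematin, had 2 intronic members that shared a TAL1 pair and a compound site, 2529 and 2559 bp from a GATA1 MultiGPS location. Epb4.1, which encodes protein 4.1, had a member in an exon 16 bp from a start site, 4757 bp from any MultiGPS location, with a WGATAA site and TG 7 or 8 bp upstream of it. Spna1 (alpha-spectrin), Kel (a blood group protein) and Gypc (glycophorin C) had 1 member each, at 198, 267 and 158 bp from a MultiGPS location.

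Of the iron genes, Slc11a2, an iron importer, had 2 members, 10107 and 10212 bp from any MultiGPS location and 1 of them with WGATAA. Slc40a1, the iron exporter ferroportin, had a member 708 bp from its start site with WGATAA 1.5 bp from the GATA1 midpoint and TAL1 18.5 bp upstream. Steap3, a ferrireductase, and Abcb10, a mitochondrial transporter needed for heme synthesis, had 1 intronic member each, 126 and 185 bp from a MultiGPS location. Slc25a38, a mitochondrial glycine carrier for heme synthesis, had 1 without WGATAA. In the progenitor list Gata2, whose product GATA1 replaces on chromatin during maturation, had 2 members 2934 and 3003 bp from a start site, both with a WGATAA site, and Erg had 1 with an E-box and no WGATAA site. Cish, a feedback inhibitor of cytokine signalling, had a member in an exon 80 bp from a start site.

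The stretch with the most members lay in an exon of Fam132b, which encodes erythroferrone, the hormone by which erythroid cells lower hepcidin. It held 5 members over 301 bp (chr1:93270135-93270436), 1 of them with a WGATAA site, at 105 bp or more from a GATA1 MultiGPS location and 125088 bp or more from a TAL1 MultiGPS location. Within 500 bp of it were 8 GATA1 pairs and 9 TAL1 pairs. Of the 7 stretches with 3 members, 4 had a MultiGPS location of both factors within 500 bp and were in introns of Dis3l2, Tatdn3 and Tgfb1 or outside genes 27542 bp from Slc45a3. The other 3 had none and were at Ank1, in an intron of Ncoa7 and upstream of Isca1, 487 bp from where it starts, an iron-sulfur cluster assembly gene, where 15 TAL1 pairs lay within 500 bp of 3 members. By closest start site Fam132b had 5 members, Cyth3, Gm1818, Rere, Runx1, Ssbp3 and Tmem131 had 4 each, and 17 genes had 3 each. The members had 683 different closest genes in all.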

How the data were processed

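ChIP-exo of GATA1 (10 libraries) and TAL1 (15 libraries) was deposited as location lists, in which the authors give the position of each peak pair or MultiGPS location as 1 base in mm9. Positions have no unit of signal, and no list carries a score, count or replicate. The submitters' processing notes name CASAVA 1.7, bcl2fastq 2.15, Bowtie 1.00 and BWA 0.6.2 and 0.7.9a. By the study's methods replicates were merged, blacklisted regions removed, GeneTrack peaks on opposite strands paired, calls above 2-fold over input kept, and pairs of different times within 40 bp joined. For GATA1 in G1E cells the sample description names the same lists, whereas the study's text describes GATA1 pairs of G1E-ER4 cells.

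All positions lay within the chromosome lengths of the mm9 reference (NCBIM37). Members were compared with 3 classes: GATA1 pairs outside MultiGPS without a TAL1 pair under 40 bp away, GATA1 and TAL1 pairs both at most 100 bp from their MultiGPS locations, and TAL1 pairs outside MultiGPS without GATA1, whose windows are centred on TAL1. Other mixed pairs were left out of the tests. An 8-bp weight matrix was learned by expectation maximization (30 iterations, pseudocount 1) from 500 final GATA1 locations, which overlap the cooccupied MultiGPS pairs, and the best site above the exact threshold for p = 0.001 was used. Shares have exact binomial 95% intervals. Genes were protein-coding genes of GENCODE vM1 (22208 names, 45971 start sites), and 4 list genes (Tfr2, Flvcr1, Spi1 and Map2) were not found there by name. Python 3.11.15, numpy 2.4.6, scipy 1.17.1, pandas 2.3.3 and pysam 0.24.0 were used, and the steps were tested on simulated data.

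The members, lists and tests were chosen with earlier results of these data known. Named genes were up to 4 per list with the most members, the 8 genes closest to the most members with ties, and the stretches with the most members. The other list genes with a member are named in addition. Windows were drawn for list genes in list order, those in exons and on chromosome 18 left out, and for members with the compound site closest to start sites. The 9 printed were picked among these after their values had been seen, to show members with and without sites, and do not stand for their frequency.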

Additional observations from a re-analysis of the deposited data

How the results depend on the processing

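No paired analysis was possible because the lists pool the libraries of a factor and no column carries a replicate, and for the same reason no replicate could be left out. The number of members was 431 with TAL1 under 20 bp away, 1581 under 100 bp, 403 with 200 bp and 328 with 500 bp from MultiGPS locations of the same factor. Odds ratios of members to each class follow. With the exact string WGATAA, the site against GATA1 pairs without TAL1 had 1.15 and TG 7 or 8 bp upstream against TAL1 pairs without GATA1 had 1.29, and neither passed. Within 20 bp, CAGCTG or CAGATG had 1.18 and 1.3 against these classes and did not pass. Over 500 bp from MultiGPS locations, the comparisons with cooccupied MultiGPS pairs no longer passed for WGATAA (0.795), TG (0.909) and CAGCTG or CAGATG (0.93), nor did start sites (1.47 against GATA1 pairs without TAL1 and 1.54 against cooccupied MultiGPS pairs). Within 500 bp, a setting added after the data had been seen, as were the last 2 motif and gene measures over 500 bp, WGATAA against GATA1 pairs without TAL1 turned to 0.689 and TG against TAL1 pairs without GATA1 to 0.951. There TG against GATA1 pairs without TAL1 (1.02), CAGCTG or CAGATG against both single-factor classes (1.1 and 1.29) and start sites against GATA1 pairs without TAL1, cooccupied MultiGPS pairs and TAL1 pairs without GATA1 (1.16, 1.47 and 1.36) did not pass. The share of TAL1 upstream was 57.3% when set against the GATA1 midpoint in place of WGATAA. Directions that turned without passing in either setting were, within 20 bp, CANNTG (0.959) and TGANTCA (0.965) against TAL1 pairs without GATA1 and TGTGGT (0.994) and GGGCGG (0.84) against GATA1 pairs without TAL1, and with 1 pair per stretch GGAAGT against cooccupied MultiGPS pairs (0.987). List genes with a member were 16 in the gene body, 25 within 50 kb and 22 by closest start site. The causes were not tested. Among the tested alternatives, 43 of the main odds ratios and 37 of the others kept their direction and their side of the threshold, while 8 of the others no longer passed and 1, CANNTG within 20 bp, newly passed.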
